A study of Mus musculus with 2 samples.

Results

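Macrophages marked by Thbs1 and Mmp12 were described in GR1+ cells sorted from mouse 4T1 breast tumors. Cells were chosen by a rule on their own counts of unique molecular identifiers (UMIs, 1 per captured transcript). A barcode was retained if it had between 500 and 5000 genes with a UMI and no more than 10% of its UMIs from mitochondrial genes. A member had at least 4 of 9 genes with a UMI, among them Thbs1, Mmp12, Sdc1, Vcan, Inhba, Plpp3, Il7r and Tnfrsf9, under 1.5% of its UMIs from S100a8 and S100a9, at most 1 of Alox15, Prtn3 and Cxcl14 detected, and no UMI of Cd3g, Trac or Cd79a. The rule found 442 members among 5187 retained barcodes, of which 165 of 1726 came from 4T1P tumors and 277 of 3461 from 4T1M tumors. They were set against the 1412 other barcodes (659 and 753) in which C1qa, C1qb, C1qc, Apoe, Csf1r, Cd68 and Fn1 together, the macrophage score, made up at least 0.3% of the UMIs, with the same S100 limit; these are called comparison barcodes. The 2362 retained barcodes at or above the S100 limit (623 and 1739) are called neutrophil barcodes.

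4T1P is the parental 4T1 mammary carcinoma line, whose tumors do not respond to anti-PD1, and 4T1M is a mutagenized line derived from it, whose tumors do respond. The study calls 4T1M a clone, while its methods describe the mutagenized cells as multiclonal. Tumors grew in BALB/c mice given as 6 to 8 weeks old, and the labels name no treatment or engineered allele for either group. GR1+ cells were taken with magnetic beads, and GR1 antibodies bind Ly6G and Ly6C, so that the selection favors neutrophils and monocytic cells. The series records give 5 pooled mice per sample, whereas the text of the study gives fewer, with 1 droplet library (10x Genomics) for each line. Variation among mice is therefore unknown, the lines could not be compared by a test, and all intervals below are 95% intervals that cover counting error only. The 4T1P library held 2947 barcodes with 21855657 UMIs and the 4T1M library 5004 with 24303957.

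Macrophages in tumors derive largely from blood monocytes, which change their gene expression once in the tissue. In poorly oxygenated regions they switch on glycolysis and angiogenic factors through hypoxia-inducible factors. C1q, MHC class II and scavenger receptors mark macrophages engaged in clearance and antigen presentation. The genes of the rule fall into several roles. Thbs1 encodes the matricellular protein thrombospondin 1, Vcan the matrix proteoglycan versican and Sdc1 the cell-surface proteoglycan syndecan 1; Mmp12 encodes macrophage elastase, Inhba the activin A subunit, Plpp3 a membrane phosphatase for lipid phosphates, Il7r the receptor chain for IL-7 and TSLP, and Tnfrsf9 the costimulatory receptor 4-1BB.

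Members held 2552971 UMIs in 4T1P and 3364085 in 4T1M. Their median depth was 14873 and 11350 UMIs per barcode, above the 6998 and 6483 of comparison barcodes and the 3075 and 2972 of neutrophil barcodes. Because the rule counts detected genes, it favors deep barcodes. Of 545 retained barcodes with at least 4 of the 9 genes, 30 were set aside by the S100 limit, 72 by having 2 or more of Alox15, Prtn3 and Cxcl14, and 1 by a lymphocyte gene. Just inside the threshold, 160 members had exactly 4 of the genes (64 and 96), with a median macrophage score of 1.19% of UMIs. Just outside it, 213 barcodes under the S100 limit and without excluding genes had exactly 3 (95 and 118), with a median score of 1.45%. The libraries shared 5 barcode sequences, 3 of them retained and 0 among members. Removing the barcodes with the highest doublet scores took 3 members from 4T1P and 9 from 4T1M.

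The macrophage label was checked against genes that the rule did not use to select members. All 15 macrophage markers had UMIs in members of both libraries, and their summed level was 20912 and 18926 CPM (UMIs of a gene per 1000000 UMIs summed over the barcodes of a set) in 4T1P and 4T1M. It was 33825 and 31239 CPM in comparison barcodes and 8103 and 7601 CPM in neutrophil barcodes. With each barcode thinned to 2000 UMIs, Csf1r, the receptor for CSF1, was detected in 47.6% and 44.6% of members. It was in 53.9% and 59.96% of comparison barcodes and in 7.82% and 9.46% of neutrophil barcodes. Itgam was in 68.9% and 72.3% of members and in 49.8% and 56.6% of neutrophil barcodes. Cd14 went the other way, in 82.9% and 88.2% of members and in 92.2% and 93.5% of neutrophil barcodes. The neutrophil chemokine receptor Cxcr2 was detected in 0.610% and 0.738% of members, against 39.5% and 43.3% of neutrophil barcodes. Members thus carried myeloid and macrophage markers, but 11 of the 15 macrophage markers were lower than in comparison barcodes in both libraries and only Itgam, Cd68, Cd14 and Ctsd were higher. Of 2819 genes with a mean of at least 50 CPM, 49.1% were lower in members of both libraries, and comparison barcodes were themselves chosen on C1q, Apoe, Csf1r and Cd68.

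Markers of other cell types were low in members. The 14 T, NK and innate lymphoid markers summed to 49.0 and 30.9 CPM, of which Rora made up 35.6 and 24.97, and Cd3g, Trac and Ncr1 had no UMI; Cd3g and Trac were barred by the rule. The 9 B and plasma cell markers summed to 129 and 165 CPM, mostly from Xbp1, with no UMI of Mzb1 or of Cd79a, which the rule barred. Jchain, a plasma cell gene, had a UMI in 1 of the 165 members of 4T1P and 9 of the 277 of 4T1M. The 10 tumor epithelial markers summed to 61.1 and 39.8 CPM, led by Cdh1, with Krt14 and Krt19 at 0. The 10 fibroblast and endothelial markers summed to 118 and 72.2 CPM, led by Pecam1, with Lum and Pdgfra at 0. The T and NK, epithelial, and fibroblast and endothelial sums were above those of comparison barcodes in both libraries (28.3 and 20.1, 24.0 and 37.6, and 27.5 and 33.7 CPM), and their part in the results was not tested. Mast cell and basophil markers summed to 1.96 and 1.49 CPM. The 12 dendritic cell markers summed to 201 and 241 CPM, led by Irf8, with Cd209a and Zbtb46 at 0. The neutrophil markers, led by S100a9, summed to 1028 and 1173 CPM in members. They were at 669 and 1463 CPM in comparison barcodes and at 173453 and 140208 CPM in neutrophil barcodes. The S100 limit capped S100a8 and S100a9 in members and comparison barcodes and defined the neutrophil barcodes. It therefore fixed part of the difference from neutrophil barcodes. The erythrocyte and platelet list summed to 905 CPM in 4T1P, almost all from Pf4, and to 2265 CPM in 4T1M, where hemoglobin genes of 3 members supplied 6341 of 6355 hemoglobin UMIs.

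The levels of the 8 named genes of the rule are given first as a description, since they chose the members. Among the matrix genes, Thbs1 (chr2:118111876-118127133, GRCm38, plus strand) was at 536 CPM (508 to 565) in 4T1P members and 390 (369 to 412) in 4T1M members, against 171 and 45.1 CPM in comparison barcodes. The 3 highest members of each library held 31.9% of the member Thbs1 UMIs in 4T1P and 18.8% in 4T1M. Vcan (chr13:89655312-89742509, minus strand) was at 149 and 69.9 CPM against 54.1 and 8.04, and Sdc1 (chr12:8771323-8793715, plus strand) at 89.7 and 139 CPM against 10.4 and 7.57. In both libraries all 3 were higher in members. The comparison level of Thbs1 and Vcan differed between the libraries, and so did the number of comparison barcodes with 2 or more of Alox15, Prtn3 and Cxcl14 (117 and 63). Without them the log2 ratio of Thbs1 in members over comparison barcodes was 3.53 in 4T1P and 4.13 in 4T1M, in place of 1.65 and 3.11, and that of Vcan was 1.96 and 3.64, in place of 1.46 and 3.11.

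The secreted protease gene Mmp12 (chr9:7344381-7369499, plus strand) was at 2823 and 2661 CPM in members against 539 and 505 in comparison barcodes, nearly the same ratio in both libraries (2.39 and 2.40 on the log2 scale). Inhba (chr13:16011851-16031621, plus strand) was at 629 and 1040 CPM against 47.7 and 82.5, with log2 ratios of 3.72 and 3.66. Among the receptors, Il7r (chr15:9505788-9530176, minus strand) was at 254 and 375 CPM against 46.2 and 44.97, and Tnfrsf9 (chr4:150914562-150946102, plus strand) at 349 and 221 against 51.8 and 21.0. Plpp3 (chr4:105157347-105232764, plus strand) was low in members, at 32.1 and 64.8 CPM, and lower still elsewhere, at 6.27 and 4.48. In neutrophil barcodes 7 of the 8 were lower than in comparison barcodes in both libraries, whereas Inhba was at 158 and 185 CPM there, above its comparison level. Mmp12 was in 354 of the 442 members, Il7r in 351, Inhba in 316, Tnfrsf9 in 226, Sdc1 in 221, Thbs1 in 195, Vcan in 139 and Plpp3 in 115. Thbs1 and Mmp12 were detected together in 130 of the 442 (29.4%).

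**Figure D1:**
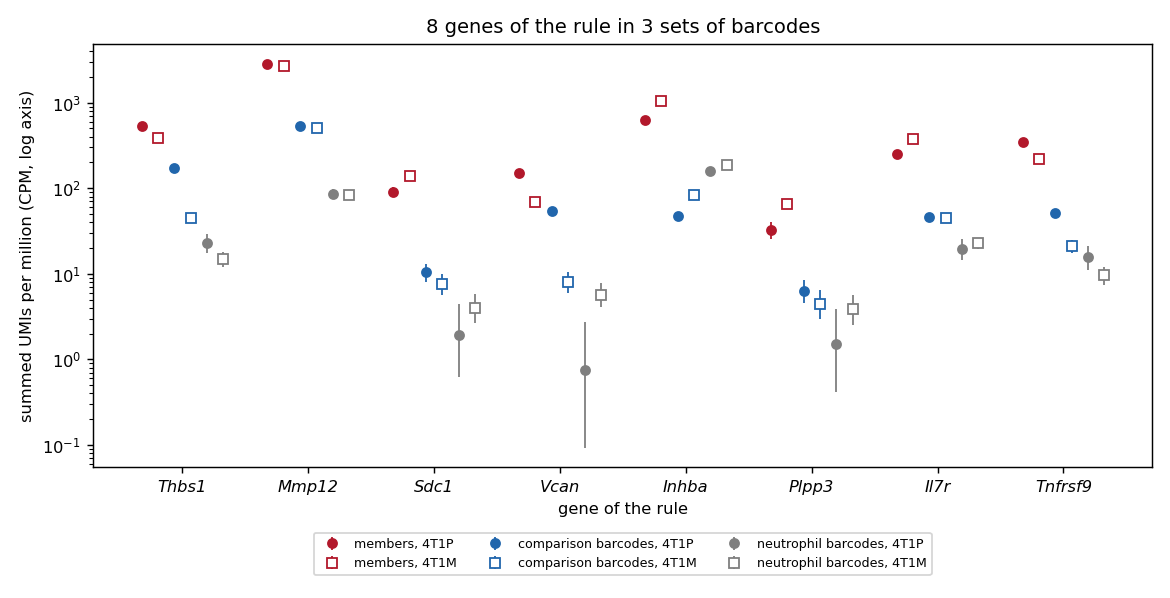
CPM (log axis) of 8 rule genes in members, comparison barcodes and neutrophil barcodes of each library, with 95% Poisson intervals that cover counting error only. Each gene was higher in members than in comparison barcodes of the same library, such as Inhba (629 against 47.7 CPM in 4T1P) and Mmp12 (2823 against 539 CPM in 4T1P).

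Each gene of the rule was also left out in turn, and members were called by at least 4 of the other 8. The left-out gene was higher in the members so called in both libraries for each of the 8 genes. Inhba had log2 ratios of 3.53 (3.37 to 3.69) in 4T1P and 2.99 (2.88 to 3.09) in 4T1M, and was detected in 53.8% and 73.0% of these members against 10.8% and 16.7% of the other barcodes. Plpp3 had ratios of 2.21 and 3.59, Sdc1 of 2.74 and 3.11, Il7r of 2.32 and 2.67, and Tnfrsf9 of 2.07 and 2.67. Mmp12 had ratios of 1.91 and 1.98 and Thbs1 of 1.38 and 2.71. Vcan had a ratio of 0.69 in 4T1P and 2.61 in 4T1M. These ratios are descriptions of 2 libraries, and the depth of members, favored by any count of detected genes, was not matched in them.

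At a matched depth of 2000 UMIs per barcode, Il7r was detected in 32.3% of 4T1P members and 43.2% of 4T1M members. It was in 4.85% and 7.56% of comparison barcodes and in 1.53% and 1.58% of neutrophil barcodes, and the part of free RNA in these shares was not tested. Inhba was detected in 32.3% and 51.3% of members, 4.44% and 7.38% of comparison barcodes and 14.1% and 16.7% of neutrophil barcodes. Thbs1 was detected in 31.7% and 25.8% of members, 12.3% and 4.61% of comparison barcodes and 1.72% and 1.22% of neutrophil barcodes. The thinning left out 1 and 6 members, 164 and 211 comparison barcodes and 99 and 343 neutrophil barcodes as shallower. Without thinning, Thbs1 was in 56.4% and 36.8% of members. Members were called at full depth with these genes in the rule, which builds in a higher detection, so that the shares are a description.

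Promoter sequence was looked up for the genes of the rule, in RefSeq windows from 250 bases before to 50 after a start site (build GRCm38.p6). The 7 genes Il7r, Inhba, Mmp12, Plpp3, Sdc1, Tnfrsf9 and Vcan matched, with 9 windows. The AP-1 motif TGANTCA, searched on both strands, was in 2 of the 9, against 7.81% of all 32851 windows, and the hypoxia-response core ACGTG was in 0 of the 9, against 19.6%. The windows with a match, in which capitals mark the motif, belong to the downstream start sites of Mmp12 (chr9:7347124-7347423, plus strand) and Tnfrsf9 (chr4:150927749-150928048, plus strand). They are shown because they are the marker promoters in which the searched letters occur; a match is a description, not a site.
Mmp12: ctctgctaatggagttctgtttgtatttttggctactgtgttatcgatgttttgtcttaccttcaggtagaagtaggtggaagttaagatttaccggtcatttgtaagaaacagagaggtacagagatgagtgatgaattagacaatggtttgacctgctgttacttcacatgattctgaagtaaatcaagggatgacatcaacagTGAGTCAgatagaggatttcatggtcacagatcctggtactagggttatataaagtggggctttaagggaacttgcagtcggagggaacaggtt
Tnfrsf9: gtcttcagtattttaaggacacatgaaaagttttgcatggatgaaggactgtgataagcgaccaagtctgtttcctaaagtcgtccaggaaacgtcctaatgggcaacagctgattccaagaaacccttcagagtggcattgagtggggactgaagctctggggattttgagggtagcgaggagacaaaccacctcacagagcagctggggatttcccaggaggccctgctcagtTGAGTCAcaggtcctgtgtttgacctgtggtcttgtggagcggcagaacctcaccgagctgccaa

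Members were not uniform. Members with 7 to 9 of the genes detected had lower macrophage and MHC class II shares and higher glycolytic shares than members with 4. The median macrophage score went from 1.34% of UMIs in 4T1P members with 4 genes to 0.642% in those with 7 to 9, and from 1.13% to 0.324% in 4T1M. MHC class II genes went from 0.805% to 0.177% in 4T1P and from 1.22% to 0.113% in 4T1M. The hypoxia and glycolysis genes went the other way, from 1.26% to 1.76% in 4T1P and from 1.17% to 1.99% in 4T1M. Across cells of 1 library, the number of genes detected had a Spearman correlation of -0.40 (165 members of 4T1P) and -0.43 (277 members of 4T1M) with the macrophage score and of 0.36 and 0.43 with the hypoxia and glycolysis share. With the UMIs per cell it was 0.00 and 0.02, and with the mitochondrial share -0.23 and -0.39. UMIs per cell themselves had a correlation of 0.28 and 0.46 with the macrophage score and of -0.22 and -0.27 with the hypoxia and glycolysis share. The median mitochondrial share was 4.29% in 4T1M members with 4 genes and 2.06% in those with 7 to 9, and the part of depth and RNA quality in these relations was not tested. Cells of 1 library share their source and are not replicates, and both axes come from the same counts.

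**Figure D2:**
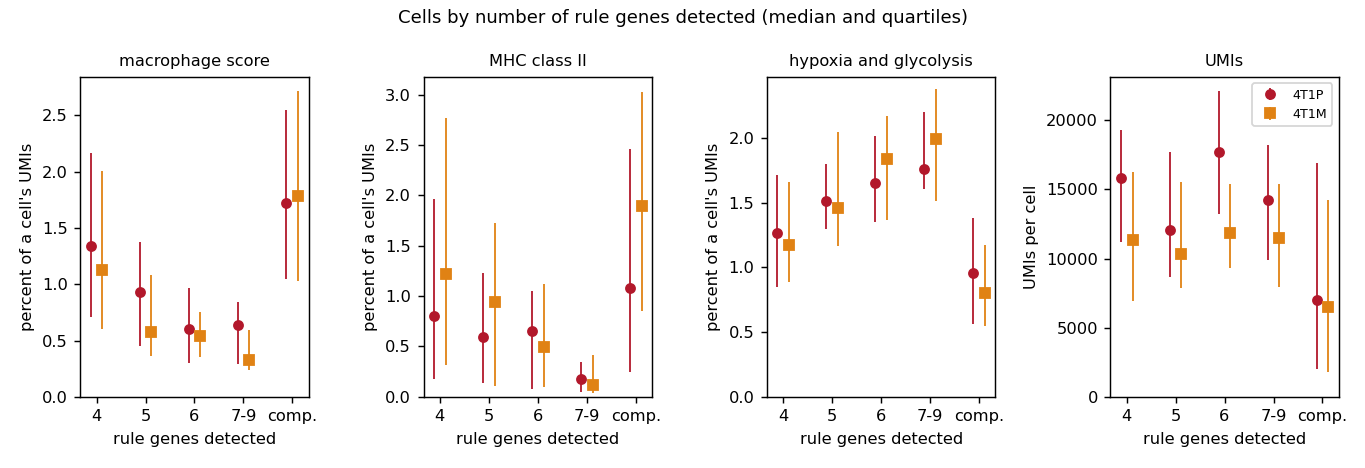
Median and quartiles, over cells, of the macrophage score, MHC class II genes, hypoxia and glycolysis genes (percent of a cell's UMIs) and UMIs per cell, for members with 4, 5, 6 and 7 to 9 rule genes detected and for comparison barcodes (comp.). In both libraries the macrophage score is lower with 7 to 9 genes than with 4 and the hypoxia and glycolysis share is higher (1.76% against 1.26% of UMIs in 4T1P).

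The rule set no floor on the macrophage score, and 80 of the 442 members (26 and 54) lay below 0.3%. These had nearly no C1q, at 33.5 and 24.4 CPM of C1qa against 1610 and 1607 in the other members, and little Apoe, at 488 and 618 CPM against 6024 and 5873. They had Csf1r at 204 and 307 CPM against 402 and 402. These genes belong to the score that split the members, so that their levels restate the split. Of the 8 named genes of the rule, 7 were higher below it in both libraries and Mmp12 was lower. Inhba reached 985 and 2306 CPM against 577 and 824, Sdc1 186 and 378 against 75.5 and 97.5, and Il7r 549 and 632 against 210 and 331. Mmp12 was at 1695 and 2440 CPM against 2989 and 2699. The monocyte markers did not go one way: Plac8 was at 902 and 1094 CPM against 151 and 422, Cx3cr1 at 3.05 and 2.03 against 74.6 and 116, and Ccr2 at 344 and 211 against 348 and 316. Col3a1, a fibroblast gene, was at 283 CPM in them in 4T1P and at 0 in 4T1M. The fibroblast and endothelial list summed to 594 and 106 CPM against 48.1 and 66.5. The T, NK and innate lymphoid list summed to 119 and 46.8 CPM against 38.7 and 28.2. The tumor epithelial list did not go one way, at 21.3 and 61.0 CPM against 67.0 and 36.2. The part of other cell types in the levels of the rule genes was not tested.

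Across 2819 genes with a mean of at least 50 CPM, 48 were at least 2-fold higher in members than in comparison barcodes in both libraries (1.70%) and 30 at least 2-fold lower in both (1.06%). The median log2 ratio over all these genes was -0.07 in 4T1P and -0.08 in 4T1M, and 889 of them (31.5%) were higher and 1384 (49.1%) lower in both libraries, the background for the counts of higher and lower list genes below. TMM factors in place of total counts raised every log2 ratio by 0.13 in 4T1P and 0.12 in 4T1M and gave 67 genes higher and 25 lower, so that 72.8% of those past 2-fold were higher in place of 61.5%. Of the named genes of the rule, Plpp3 was under the filter and the other 7 were among the 48. Since members were chosen on these cells, the ratios describe the 2 libraries.

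Outside the rule, the genes highest in members were a chemokine, a growth factor receptor and an inducible enzyme. Cxcl3, a neutrophil-attracting chemokine, was at 1635 and 1729 CPM against 248 and 322, a log2 ratio of 2.72 and 2.43. Met, the receptor for hepatocyte growth factor, was at 82.6 and 131 CPM against 15.4 and 24.0 (2.42 and 2.45). Nos2, the inducible nitric oxide synthase, was at 96.0 and 167 CPM against 24.5 and 14.5 (1.97 and 3.52).

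Cxcl3 and Nos2 were also high in neutrophil barcodes, at 1651 and 2454 CPM and at 165 and 169 CPM, and so were several of the genes that follow. The sheddase Adam8 was at 419 and 356 CPM in members, 131 and 77.0 in comparison and 263 and 232 in neutrophil barcodes. Slpi, an inhibitor of neutrophil elastase, was at 488 and 451 CPM in members, 157 and 113 in comparison and 607 and 585 in neutrophil barcodes. AA467197, the mouse counterpart of NMES1, and Cd24a were 1.54 and 1.66 and 1.71 and 1.4998 above comparison barcodes on the log2 scale, and both were higher still in neutrophil barcodes. S100a8 and S100a9 together, capped in members by the rule, were at 732 and 887 CPM there, against 152959 and 124742 in neutrophil barcodes. The part of neutrophil RNA in the levels of these genes in members was not tested. Met, the MAP kinase phosphatase Dusp4 (log2 ratios 2.05 and 1.52) and Errfi1, an inhibitor of EGF receptor signaling (1.48 and 1.64), were lower in neutrophil barcodes than in members.

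**Figure D3:**
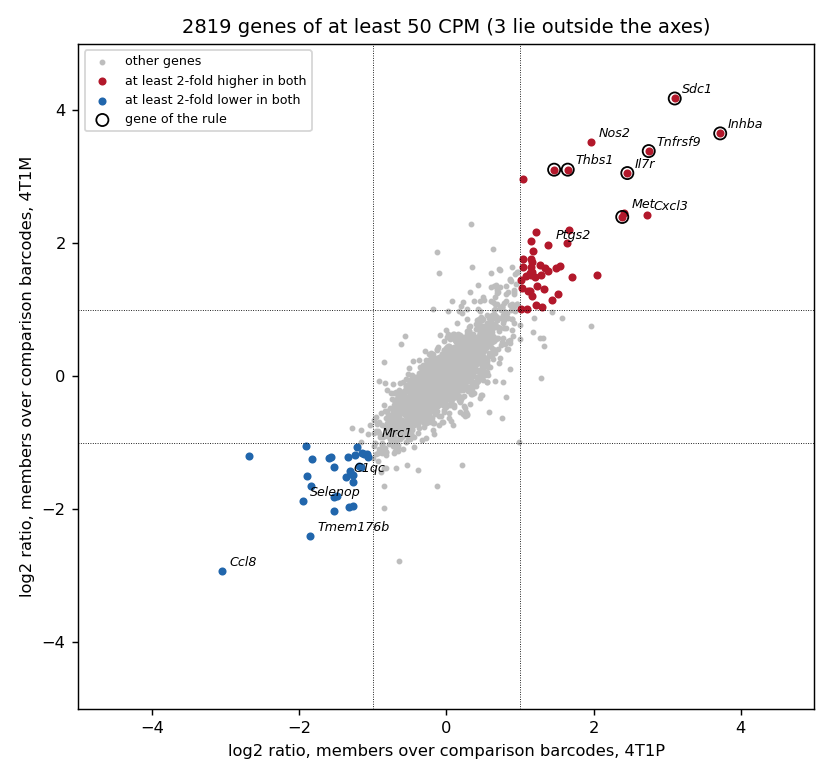
Log2 ratio of members over comparison barcodes in 4T1P (x axis) and 4T1M (y axis) for 2819 genes of at least 50 CPM, with dotted lines at a 2-fold difference and circles around the named genes of the rule; 3 genes lie outside the axes. The 48 genes at the upper right were at least 2-fold higher in both libraries and the 30 at the lower left at least 2-fold lower.

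Genes of hypoxia and glycolysis were higher in members as a group. All 26 of the 26 measured were higher in both libraries, 4 of them at least 2-fold, and the median log2 ratio was 0.57 in 4T1P and 0.79 in 4T1M. Ndrg1, a stress gene induced by low oxygen, was at 637 and 667 CPM against 282 and 180. The glucose transporter Slc2a1 was at 346 and 399 CPM against 155 and 134, the endoplasmic oxidase Ero1l at 536 and 585 against 243 and 172, and the oxygen sensor Egln3 at 111 and 158 against 47.7 and 35.1. Pgk1, Eno1 and Ldha, enzymes of glycolysis, had smaller ratios (0.76 and 1.06, 0.81 and 1.13, 0.42 and 0.60). Hif1a itself, the oxygen-regulated transcription factor subunit, differed by 0.27 and 0.32. The same list summed to 15216 and 15298 CPM in members, 9932 and 8351 in comparison barcodes and 13241 and 13231 in neutrophil barcodes, so that neutrophils had it too. Mitochondrial UMIs had a median share of 4.18% and 3.15% in members and 4.52% and 4.46% in comparison barcodes.

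All 6 of the angiogenic and growth factor genes measured were higher in both libraries, with medians of 1.08 and 1.11, and 3 were at least 2-fold higher. Thbs1, which these counts and medians include, belongs to the rule, which fixed its direction. Hbegf and Areg, ligands of the EGF receptor, were at 332 and 267 CPM against 138 and 83.9 and at 217 and 194 against 89.1 and 66.9. Vegfa, the main angiogenic factor, was at 663 and 498 CPM against 358 and 308 (0.89 and 0.69). Of the 20 matrix, protease and inhibitor genes, 13 were higher and 5 lower in both, 5 at least 2-fold higher, with medians of 0.17 and 0.51, and 3 of the 5 (Thbs1, Mmp12 and Vcan) belong to the rule. The cathepsin gene Ctsl was at 1921 and 2472 CPM against 867 and 855. Spp1, encoding osteopontin, was at 3907 and 5664 CPM against 2738 and 2565 (0.51 and 1.14), and Mmp13, a collagenase, at 626 and 474 against 260 and 316 (1.27 and 0.58). Timp2, a metalloprotease inhibitor, was lower, at 144 and 117 CPM against 263 and 193.

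In arginine and polyamine metabolism, 6 of 9 genes were higher in both libraries and 1 lower, with medians of 0.71 and 0.76. Besides Nos2, the arginine transporter Slc7a2 was over 2-fold higher in both, at 251 and 372 CPM against 112 and 113. The polyamine enzyme Odc1 differed by 0.15 and -0.13. Among lipid handling and lysosome genes, 10 of 16 were higher and 5 lower in both. The galectin Lgals3 was at 3160 and 3476 CPM against 1250 and 1126, and the lipid droplet coat gene Plin2 at 712 and 729 against 331 and 300. Trem2, the lipid receptor of many tissue macrophages, was at 235 and 252 CPM against 283 and 279.

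Of 28 NF-kB targets measured, 23 were higher and 2 lower in both libraries, with medians of 0.31 and 0.31, and 4 were at least 2-fold higher. The list summed to 49976 and 58116 CPM in members and 30165 and 35509 in comparison barcodes. It was higher still in neutrophil barcodes, at 66473 and 88774 CPM, and the part of neutrophil RNA in members was not tested. Ptgs2, which encodes cyclooxygenase 2, was at 2003 and 2450 CPM against 766 and 622 (1.39 and 1.98). The chemokines Cxcl1 and Cxcl2, like Cxcl3 ligands of Cxcr2, were at 4107 and 4794 CPM against 2004 and 1524 and at 18186 and 20843 against 9596 and 10382. Il1b was at 4851 and 5948 CPM against 3281 and 4154 (0.56 and 0.52), and Tnf at 711 and 838 against 586 and 739 (0.28 and 0.18). The 18 chemokines as a list were mixed, 11 higher and 7 lower in both, with medians of 0.33 and 0.73. The chemokine list summed to 38214 and 43037 CPM in members, 23712 and 25291 in comparison barcodes and 43602 and 59406 in neutrophil barcodes. Ccl8, a monocyte-attracting chemokine, had the lowest ratio by the smaller of both libraries, at 48.6 and 43.4 CPM in members against 402 and 333 in comparison barcodes (-3.04 and -2.93), and Ccl12 was at 118 and 143 against 421 and 337. Ccl2 and Ccl3, other CC chemokines, were higher in members (0.61 and 1.13, 1.003 and 0.77).

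**Figure D4:**
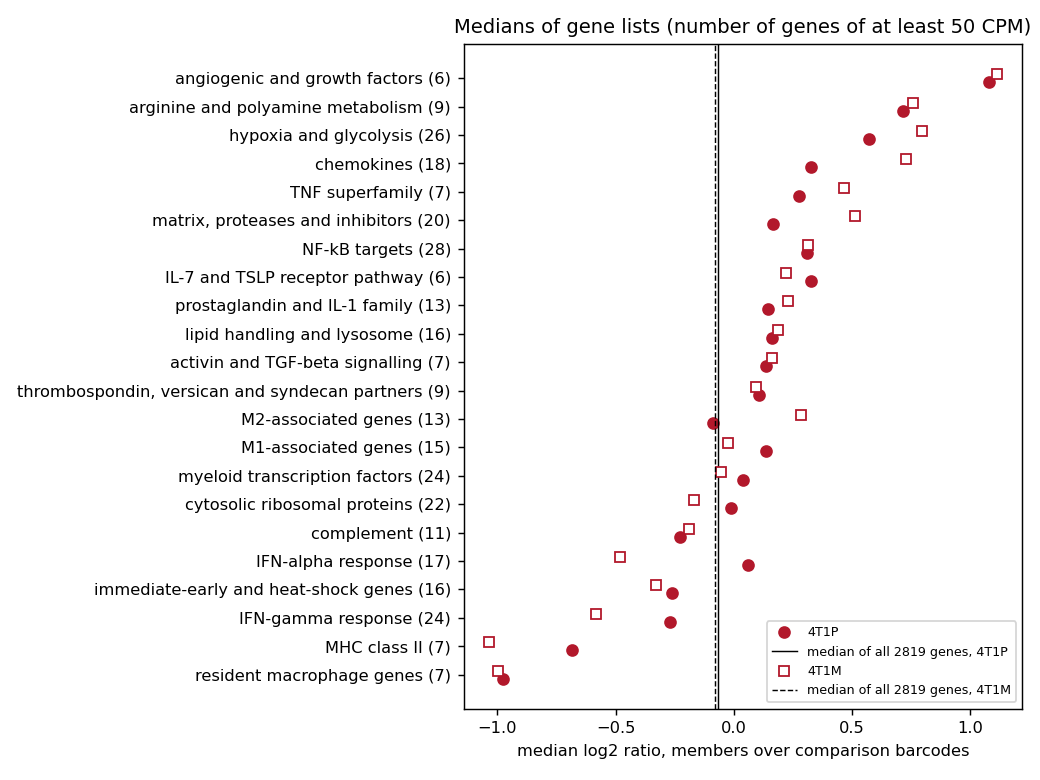
Median log2 ratio of members over comparison barcodes for each gene list, with the number of genes of at least 50 CPM in brackets, in 4T1P (filled) and 4T1M (open); the vertical lines are the medians over all 2819 genes (-0.07 and -0.08). The angiogenic, arginine and hypoxia lists lie to the right of these lines in both libraries and the MHC class II and resident macrophage lists to the left.

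Genes of tissue-resident and scavenging macrophages were lower in members. All 7 of the resident macrophage genes measured were lower in both libraries, 3 at least 2-fold, with medians of -0.97 and -0.998. Selenop, a selenium transport protein, was at 183 and 120 CPM against 706 and 442 (-1.95 and -1.88), the mannose receptor Mrc1 at 388 and 195 against 763 and 390 (-0.97 and -0.998), and the folate receptor Folr2 at 46.2 and 11.0 against 112 and 42.8. Pltp, a phospholipid transfer protein, had log2 ratios of -1.91 and -1.04. Cx3cr1, the fractalkine receptor, was at 65.4 and 99.0 CPM against 243 and 281. Of 11 complement genes, 5 were at least 2-fold lower and 0 at least 2-fold higher. C1qa was at 1407 and 1375 CPM in members against 3440 and 3798; C1q and Apoe were part of the comparison rule, which raises their level there. Tmem176b and Tmem176a, membrane proteins of myeloid cells, Fcgrt, the neonatal Fc receptor, Rab3il1, Ntpcr and the calmodulin kinase Camk1 completed the 10 lowest genes with Ccl8, Selenop, Cx3cr1 and C1qc, and the log2 ratios of these 6 lay between -1.36 and -2.41.

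All 7 MHC class II genes were lower in members of both libraries, none of them 2-fold in both, with medians of -0.68 and -1.04. Cd74, the invariant chain, was at 5060 and 5971 CPM against 7815 and 11026, and H2-Aa at 1860 and 2256 against 2990 and 4390. Of 24 IFN-gamma response genes, 20 were lower and 1 higher in both, with medians of -0.27 and -0.58, and Gbp7, a guanylate-binding protein, was 2-fold lower. The higher gene was Cd274, encoding PD-L1, at 255 and 311 CPM against 151 and 218. Of 17 IFN-alpha response genes, 7 were lower and 0 higher in both with medians of 0.06 in 4T1P and -0.48 in 4T1M.

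Lists around the receptors and ligands of the rule held few genes past 2-fold, and the rule fixed the direction of its own genes in them. Of 7 activin and TGF-beta signaling genes, 4 were higher and 3 lower in both, and only Inhba was 2-fold higher; the receptor Tgfbr2 was at 82.6 and 91.0 CPM against 137 and 127. Of 6 genes of the IL-7 and TSLP receptor pathway, 4 were higher and 1 lower, and only Il7r was 2-fold higher, while Il2rg, the partner chain for IL-7, was at 50.5 and 52.3 CPM against 51.7 and 68.8 and Crlf2, the partner chain for TSLP, at 59.9 and 75.8 against 58.7 and 77.1. Of 7 TNF superfamily genes, 5 were higher and 1 lower, with Tnfrsf9 and the adaptor Traf1 (125 and 124 CPM against 44.0 and 52.7) 2-fold higher. Of 9 partners of thrombospondin, versican and syndecan, 4 were higher, 3 lower and 0 past 2-fold; Cd44, a receptor for hyaluronan, was at 646 and 690 CPM against 378 and 380.

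Lists tied to activation states were mixed. Of 13 M2-associated genes, 5 were higher and 5 lower in both (medians -0.09 and 0.28), with Ccl24 2-fold higher and Folr2 2-fold lower. Of 15 M1-associated genes, 6 were higher and 5 lower (0.14 and -0.02), with Nos2 and Ptgs2 2-fold higher. Of 24 myeloid transcription factors, 10 were higher and 11 lower and 0 past 2-fold, with Bhlhe40 at 0.70 and 0.41 and Irf8 at -0.67 and -0.34. Of 13 prostaglandin and IL-1 family genes, 5 were higher and 4 lower, with Ptgs2 2-fold higher and Ptgs1 2-fold lower. Of the 6 monocyte markers measured, 2 were higher and 2 lower, with Cx3cr1 2-fold lower. Of 3 cell cycle genes measured, 0 were higher and 2 lower, among them the proliferation marker Mki67 at 58.0 and 80.6 CPM against 115 and 128. Of 16 immediate-early and heat-shock genes, which respond to tissue dissociation, 0 were higher and 10 lower in both, and of 22 ribosomal protein genes 0 were higher and 13 lower; of all genes 31.5% were higher and 49.1% lower. Of 4 nuclear-retained RNAs, 3 were higher and 1 lower.

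Between the libraries, members made up 9.56% of retained barcodes in 4T1P (exact binomial interval 8.21% to 11.0%) and 8.00% in 4T1M (7.12% to 8.96%). As a share of members and comparison barcodes together they were 20.0% (17.3% to 22.9%) and 26.9% (24.2% to 29.7%). The part of the sort and of depth in these shares was not tested. Among retained barcodes of at least 5000 UMIs the shares were 22.2% and 22.3%, and with the rule applied after thinning to 2000 UMIs they were 4.67% and 4.67%. The shares of 2 libraries do not estimate a difference between tumors.

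Of 2729 genes with a mean of at least 50 CPM in members, 14 were at least 2-fold higher in 4T1M members than in 4T1P members (0.513%) and 8 at least 2-fold lower (0.293%), with a median log2 ratio over all of them of 0.00. Of all these genes 1357 (49.7%) were higher in 4T1M members, and 1330 of 2900 (45.9%) were higher in 4T1M comparison barcodes, the background for the list counts that follow. In comparison barcodes 26 of 2900 genes were 2-fold higher (0.897%) and 17 lower (0.586%). The highest in members were the hemoglobin genes Hbb-bs, Hba-a1 and Hba-a2, with 10, 3 and 0 UMIs in 4T1P and almost all of the 4T1M UMIs in 3 members. Without barcodes of over 1% hemoglobin, 9 genes were 2-fold higher and 8 lower. The cell cycle regulator Rgcc was at 116 and 262 CPM, a ratio of 1.18 (0.99 to 1.38). In comparison barcodes the ratio of Rgcc was -0.75.

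Interferon-induced genes were higher in the 4T1M library in members as in comparison barcodes. In members, 14 of 16 IFN-alpha response genes were higher in 4T1M, 2 at least 2-fold, and the median log2 ratio was 0.67, against 1.06 in comparison barcodes, where 16 of 16 were higher. The transcription factor Irf7 went from 81.1 to 172 CPM (1.08), Ifi27l2a from 401 to 832 (1.05), and the antiviral gene Rsad2 from 362 to 686 (0.92). Plac8 went from 247 to 520 CPM (1.07) and the T cell-attracting chemokine Ccl5 from 230 to 452 (0.97). Of the Ccl5 UMIs, 40.0% in 4T1P and 18.3% in 4T1M lay in the 3 highest members of each library. Ifit2, 2-fold lower in 4T1M, went the other way, from 103 to 49.6 CPM. Of 22 IFN-gamma response genes, 17 were higher in 4T1M (median 0.27, against 0.49 in comparison barcodes), whereas Cxcl9, an IFN-gamma-induced chemokine, went from 129 to 58.9 CPM. Of 7 MHC class II genes 6 were higher (median 0.28, against 0.61). Whether members and comparison barcodes differed in these ratios was not tested, for want of replicates.

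The genes lowest in 4T1M members came from several lists. The histone gene Hist1h1c went from 164 CPM in 4T1P to 66.3 in 4T1M (-1.31), Pf4, a chemokine also of platelets, from 896 to 371 (-1.27), the eosinophil-attracting chemokine Ccl24 from 867 to 396 (-1.13), Vcan from 149 to 69.9 (-1.09) and Mrc1 from 388 to 195 (-0.99). Comparison barcodes had ratios of -0.90, -1.39, -1.28, -2.74 and -0.97 for the same genes. Ifitm1, Saa3, S100a4, Ccnf and Fos followed, with ratios from -0.66 to -0.80 in members. Of Saa3, an acute-phase gene, 72.4% and 65.1% of the UMIs lay in the 3 highest members of each library. Of 11 M2-associated genes 4 were higher and 7 lower in 4T1M members (median -0.11, against -0.47 in comparison barcodes). All 5 resident macrophage genes measured in members were lower in 4T1M (median -0.56, against -0.68 in comparison barcodes).

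Of 26 hypoxia and glycolysis genes 17 were higher and 9 lower in 4T1M, with a median of 0.07, against -0.23 in comparison barcodes. Of 28 NF-kB targets 22 were higher, with a median of 0.24, against 23 and 0.32 in comparison barcodes. Among the 7 named rule genes that passed the filter, Inhba (0.73, 0.64 to 0.81) and Vcan (-1.09) were at the extremes and Mmp12 was at -0.08. Plpp3, under the filter, had a ratio of 1.01 (0.64 to 1.40). Of 22 ribosomal protein genes 0 were higher and 22 lower, with a median of -0.19, against 7 higher and a median of -0.03 in comparison barcodes, and the depth of members was lower in 4T1M as well; the part of depth in these ratios was not tested.

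**Figure D5:**
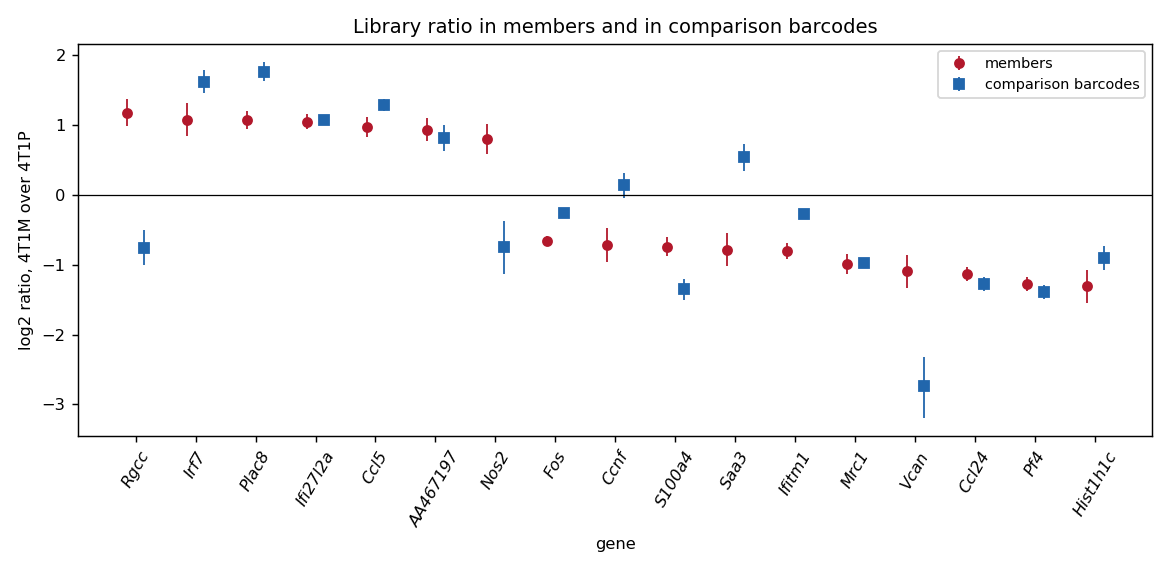
Log2 ratio of 4T1M over 4T1P in members (circles) and comparison barcodes (squares) for the genes highest and lowest in members, without hemoglobin genes, and for Nos2, with 95% intervals that cover counting error only. Rgcc and Nos2 lie above 0 in members (1.18 and 0.80) and below 0 in comparison barcodes, whereas Pf4, Ccl24 and Mrc1 lie below 0 in both.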

How the data were processed

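Each library came as 1 matrix of raw UMI counts that the authors deposited without normalization, counted against mm10 (GRCm38); the matrix headers name Cell Ranger 4.0.0. All 32285 listed genes were read. UMIs were summed over members, comparison and neutrophil barcodes of each library, scaled to CPM and compared as log2 ratios of those rates with 0.5 UMIs added, without a test. Exact Poisson, conditional and Clopper-Pearson intervals (95%) take in the error of counting alone. Genes needed a mean of 50 CPM. Named genes are those of the rule and of the gene lists, the 15 highest and 10 lowest in members over comparison barcodes (by the smaller ratio of the 2 libraries), and, at a mean of 100 CPM, the 10 highest and 10 lowest between libraries. Results of some genes, 1 of them in the rule, are not reported here. Members and lists were chosen with earlier results of these data known. Doublets were kept; Scrublet's automatic threshold called 1 and 0 barcodes, so the 69 and 200 highest scores were removed as an alternative. Sums were computed in Python 3.11.15 with scipy 1.17.1 and tested on simulated data; edgeR 4.0.16 and DESeq2 1.42.0 supplied scaling factors only. Depth was matched by thinning each barcode to 2000 UMIs. Members held 2552971 and 3364085 UMIs.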

Additional observations from a re-analysis of the deposited data

Results flagged for a closer look

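For 4 of the named genes the log2 ratio of 4T1M over 4T1P had opposite signs in members and in comparison barcodes, with counting intervals that leave out 0 on both sides; the difference between the ratios was not tested, since each condition has 1 library. Rgcc was at 1.18 in members and -0.75 in comparison barcodes. Nos2 was at 0.80 in members (0.58 to 1.02) and -0.75 in comparison barcodes (-1.13 to -0.38). Saa3 was at -0.78 and 0.54, with 72.4% and 65.1% of its member UMIs in the 3 highest cells of each library. Its ratio in members turned to 0.61 among those with a macrophage score of at least 0.3% and to 0.28 among barcodes of 5000 to 20000 UMIs, the sign of comparison barcodes. Hbb-bs was at 8.29 and -1.28, with 10 UMIs in 4T1P members and nearly all UMIs of 4T1M members in 3 cells, and its ratio in members was -0.25 without barcodes of over 1% hemoglobin.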

How the results depend on the processing

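No paired analysis was possible because the groups have 1 sample each, and no replicate could be left out. With no replicates, counting error is the only error known, and differences between animals, dissociations and libraries cannot be told apart from the condition. Members were deeper than comparison barcodes. The alternatives on macrophage score, depth window, hemoglobin and Alox15-type barcodes were chosen after seeing the data. The cause of each shift below was not tested.
The member share moved from 9.56% and 8.00% to 15.1% and 11.4% at 3 or more genes, 5.85% and 5.23% at 5 or more, 4.67% and 4.67% after thinning, and 22.2% and 22.3% at 5000 UMIs or more. Leaving out Mmp12 gave 6.78% and 5.95%, Il7r 7.42% and 6.30% and Tnfrsf9 7.94% and 7.02%, Thbs1 7.71% in 4T1P and Inhba 6.41% in 4T1M.
The 48 genes higher and 30 lower in members, and the 14 higher and 8 lower in 4T1M, became 329, 429, 324 and 407 with no filter beyond 10 UMIs and 25, 9, 3 and 2 at 200 CPM, where more or fewer genes were compared. Per-cell means gave 106 higher and 55 lower in members, at least 5 genes 61 lower, thinning 76 higher in members with 26 higher and 32 lower in 4T1M, 5000 to 20000 UMIs 52 lower in members and 13 lower in 4T1M, comparison barcodes without the Alox15 type 73 higher, and no hemoglobin barcodes 9 higher in 4T1M.
Directions turned for these. The median of thrombospondin, versican and syndecan partners in 4T1P went to -0.0448 (no filter), -0.16 (at least 5 genes), -0.00017 (thinned) and -0.0781 (no Alox15 type), and that of M2-associated genes in 4T1M to -0.20 with no filter. At least 5 genes turned the prostaglandin and IL-1 median in 4T1M (-0.36) and, between libraries, the neutrophil marker (-0.35) and immediate-early (0.0019) medians and Slpi (0.0694, and 0.0215 with per-cell means). Ifitm1 in 4T1P went to -0.44 (per-cell), -0.38 (thinned) and -0.11 (5000 to 20000 UMIs), and Hist1h1c in 4T1P to -0.0410 (thinned). At a macrophage score of 0.3% or more, Cxcl3 between libraries was -0.0473 and Saa3 was -0.23 in 4T1P and 0.61 between libraries; at 5000 to 20000 UMIs Cxcl3 was -0.0222 and Saa3 0.28. Hbb-bs in 4T1P went to 0.47 (5000 to 20000 UMIs), 0.24 (no Alox15 type) and 0.0714 (no hemoglobin barcodes), the last also giving Hba-a1 -0.92 and Hba-a2 -1.16 in 4T1M and Hbb-bs -0.25 between libraries. Of 1664 alternative values of single genes, 1231 stayed close to the reported value.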
